A study of Mus musculus with 24 samples.

Results

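Bglap3 and Tcim are 2 of the 18171 genes measured in these mouse livers, and they were picked by their rows for being much lower in livers that overexpressed L2d13 than in wild-type (WT) livers. Bglap3, the osteocalcin-related protein, belongs to a cluster of near-identical genes on chromosome 3. Tcim encodes a small protein first known as TC1, the transcriptional and immune response regulator. Because the lower level in L2d13 livers chose both genes, their genotype differences below are descriptions, given with their errors and with no test.

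RNA from whole liver of C57BL/6 mice was sequenced in 24 libraries, 12 from L2d13 mice and 12 from WT mice. L2d13 is the overexpressed form that the labels call L2 delta13, a name in use for a splice form of the collagen-crosslinking enzyme Loxl2 that lacks exon 13; the labels do not spell L2 out and name no promoter, vector or age. Sample names carry the digit 2 or 4 in both genotypes, with no stated meaning, which gives 4 groups of 6 libraries (L2d13 set 2, L2d13 set 4, WT set 2 and WT set 4). The labels do not say whether each library is a separate animal; the p-values therefore speak of the spread among libraries, part of which may be technical. Levels are FPKM, fragments scaled to the length of the transcript and the size of the library, and in whole liver a lower level can mean fewer cells of a type or less RNA per cell, which cannot be told apart. The row of Gm21451, an annotated copy of Loxl2, checks the labels: it averaged 172 ± 69.3 FPKM over the L2d13 libraries and 0.240 ± 0.339 over the WT libraries (SD, n = 12 each), with no overlap, while the Loxl2 row ran from 0.83 to 2.26 and from 0.36 to 1.26 FPKM. Hepatocyte markers were high in every library, with a summed FPKM of 26550 to 55330 over 7 genes including albumin.

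Osteocalcin is a small bone matrix protein made by osteoblasts. It is a Gla protein, which means that a vitamin K-dependent carboxylase modifies some of its glutamates, and the liver uses the same enzyme for its clotting factors. The mouse carries Bglap and Bglap2, expressed in bone, and Bglap3, which is described as expressed outside bone. The TC1 protein binds Chibby (Cby1), a protein that keeps beta-catenin away from its partners on DNA, and so bears on Wnt signalling. TC1 has also been linked to NF-kB signalling.

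The 3 osteocalcin genes lie side by side on the minus strand of chromosome 3 (GENCODE M21, GRCm38). Bglap3 occupies chr3:88368616-88372743, Bglap2 chr3:88377736-88378699 and Bglap chr3:88383501-88384464. Their coding sequences from ATG to stop, read from the GENCODE transcripts, have the same length of 288 bases. They are shown because the reads of one can be taken for another. Capitals mark the positions at which the 3 sequences are not all alike.
Bglap3: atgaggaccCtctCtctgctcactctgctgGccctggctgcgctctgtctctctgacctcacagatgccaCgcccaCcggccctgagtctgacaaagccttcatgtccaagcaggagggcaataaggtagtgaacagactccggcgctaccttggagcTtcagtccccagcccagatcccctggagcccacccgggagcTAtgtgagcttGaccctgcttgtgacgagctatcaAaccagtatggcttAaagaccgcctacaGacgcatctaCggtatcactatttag
Bglap2: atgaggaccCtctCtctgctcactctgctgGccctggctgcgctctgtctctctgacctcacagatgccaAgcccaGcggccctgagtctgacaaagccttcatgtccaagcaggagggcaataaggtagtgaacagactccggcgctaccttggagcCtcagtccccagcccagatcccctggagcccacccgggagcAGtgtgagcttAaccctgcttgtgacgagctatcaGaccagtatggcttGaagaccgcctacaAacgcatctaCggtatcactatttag
Bglap: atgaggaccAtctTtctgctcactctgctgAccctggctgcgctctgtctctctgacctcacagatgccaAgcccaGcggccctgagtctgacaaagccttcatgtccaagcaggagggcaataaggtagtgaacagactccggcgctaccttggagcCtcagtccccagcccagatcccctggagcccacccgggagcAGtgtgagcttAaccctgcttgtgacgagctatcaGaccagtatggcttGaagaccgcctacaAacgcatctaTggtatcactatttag
Bglap3 differed from Bglap2 at 9 positions (96.9% identical) and from Bglap at 13 (95.5% identical), while Bglap2 and Bglap differed at 4 (98.6% identical). Over the shorter Bglap3 transcript of 717 bases, 160 of its 668 stretches of 50 bases also occurred in a transcript of another gene, and 20 of its 618 stretches of 100 bases did. The sequence thus leaves most of the transcript unique at these lengths, but counts of Bglap3 depend in part on how shared fragments were assigned, and the level of Bglap3 is uncertain to that degree.

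Tcim occupies chr8:24437180-24438984 on the minus strand, as 1 exon of 1805 bases with a coding sequence of 321 bases including the stop. None of its 1756 stretches of 50 bases occurred in another gene on the same strand (0 stretches). A noncoding transcript on the other strand, Gm26714, overlaps 337 bases of the Tcim exon. The sources used here do not say whether fragments were counted by strand, so Tcim fragments cannot be told apart from antisense fragments over those bases.

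GENCODE and RefSeq give Bglap3 more than 1 start. The transcript of 717 bases has 4 exons and starts near the coding sequence, while a long transcript of 2051 bases in 6 exons and another of 1047 bases in 7 exons start farther upstream. The windows of the RefSeq promoter table (GRCm38.p6) at the far and the near start hold near-copies of 1 stretch, which lies directly before the near start and somewhat farther from the far one. Its 150 bases are shown from both places because Bglap3 repeats its own upstream sequence, with capitals where the copies differ.
far start window, chr3:88372842-88372991, minus strand: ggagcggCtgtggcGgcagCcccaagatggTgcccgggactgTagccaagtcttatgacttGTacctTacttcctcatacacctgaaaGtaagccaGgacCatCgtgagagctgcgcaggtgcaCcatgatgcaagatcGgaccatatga
near start window, chr3:88369832-88369981, minus strand: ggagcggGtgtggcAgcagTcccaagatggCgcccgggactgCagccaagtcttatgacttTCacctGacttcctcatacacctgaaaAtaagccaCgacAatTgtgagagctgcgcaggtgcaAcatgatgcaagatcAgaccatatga
They differed at 14 of 150 positions (90.7% identical). For motifs, 3 were searched on either strand of the start windows. The TATA box motif, spelled TATAAA, occurred in 13.6% of the 32851 windows in that table. The core site of Runx factors, spelled ACCACA, occurred in 16.8%. The E-box, spelled CACGTG, occurred in 7.2%. The Bglap3 windows held 0 matches to each, and the window of the osteocalcin gene Bglap held 1 TATA box and 1 Runx core. These are matches of letters within the windows of the table and nothing more.

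Bglap3 was expressed in every WT liver and was near 0 in most L2d13 livers. In WT set 2 its FPKM ran from 14.44 to 52.21 with a median of 29.08, and the mean was 31.5 ± 14.6 (SD, n = 6). In WT set 4 it ran from 2.99 to 60.16 with a median of 23.3, and the mean was 29.2 ± 22.1 (SD, n = 6). One WT library stood low, replicate 9 of set 4 at 2.99, below the next lowest WT library at 14.44.

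The L2d13 livers of set 2 were split for Bglap3. Replicates 1, 3 and 4 held 8.75, 25.28 and 16.21 FPKM, while replicates 2, 5 and 6 held 0.23, 1.18 and 0.16. The mean of 8.64 ± 10.3 (SD, n = 6) lay close to replicate 1 alone, and the median was 4.965. In set 4, by contrast, Bglap3 was low in every L2d13 library, from 0 in replicate 7 to 1.1 in replicate 8, with a mean of 0.453 ± 0.464 (SD, n = 6). In set 2, 4 of 6 L2d13 libraries lay below every WT library of the set, a count whose share over all genes was not computed. In set 4 all 6 of 6 did. Over all tested genes, all 6 lay below in 0.56% in set 2 and in 1.7% in set 4. The Bglap3 values are among those that chose the gene. The order of the group means was WT set 2, WT set 4, L2d13 set 2 and L2d13 set 4, and the WT groups did not differ beyond their spread.

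Tcim was lower in L2d13 livers too, but it never approached 0. Its FPKM ran from 15.39 to 60.71 in WT set 2, with a median of 29.21 and a mean of 33.6 ± 18.1 (SD, n = 6). In WT set 4 it ran from 25.94 to 89.82, with a median of 34.22 and a mean of 46.8 ± 24.9 (SD, n = 6). The WT groups overlapped widely. In L2d13 set 2 it ran from 9.4 to 18.96, with a median of 12.13 and a mean of 12.9 ± 3.22 (SD, n = 6). In L2d13 set 4 it ran from 3.75 to 8.24, with a median of 6.02 and a mean of 5.90 ± 1.73 (SD, n = 6). The L2d13 groups were narrow and did not overlap each other: the lowest set 2 library at 9.4 lay above the highest set 4 library at 8.24. Of the 12 L2d13 libraries, 11 lay below all 12 WT libraries, a count whose share over all genes was not computed. In set 4 all 6 L2d13 libraries lay below all 6 WT libraries, as they did in 1.7% of tested genes. These values are among those that chose the gene. The exception among the 12 was replicate 3 of L2d13 set 2 at 18.96, which overlapped replicates 2 and 3 of WT set 2 at 18.89 and 15.39. The same replicate held the highest Bglap3 of any L2d13 library. The order of the Tcim group means was WT set 4, WT set 2, L2d13 set 2 and L2d13 set 4.

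**Figure D1:**
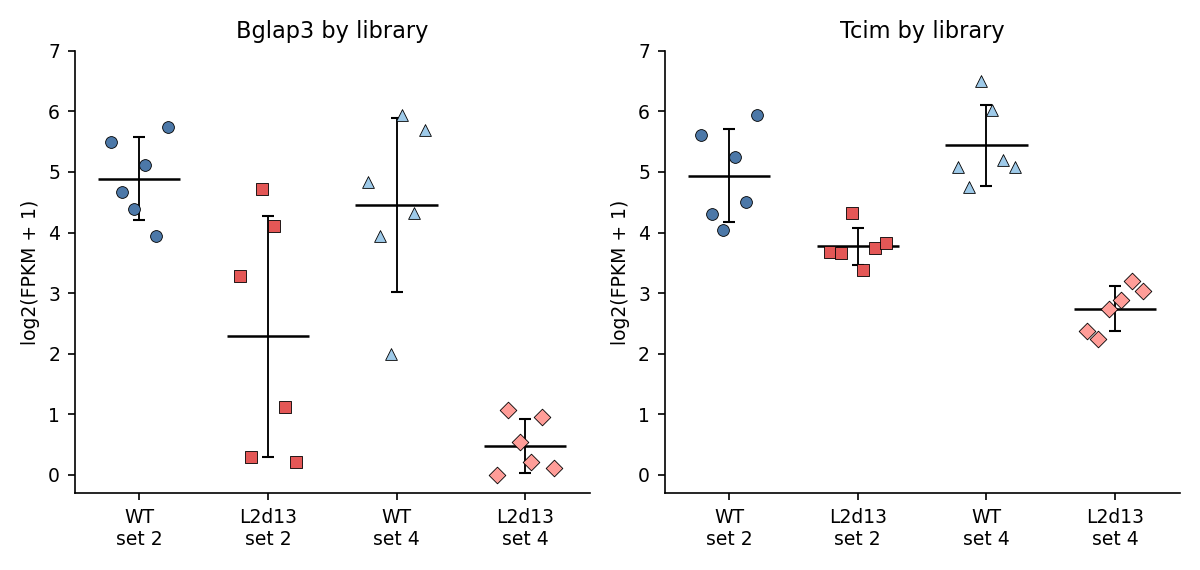
Level of Bglap3 (left) and Tcim (right) in each library as log2(FPKM + 1), by group; each point is 1 library, the long line is the group mean and the bar spans 1 SD to each side (n = 6). Bglap3 splits the L2d13 set 2 libraries into 3 high and 3 low ones and lies near 0 in L2d13 set 4, while Tcim is evenly low within each L2d13 group.

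On the scale of log2(FPKM + 1), which understates the change of low values, the difference of Bglap3 between L2d13 and WT livers was -3.29 ± 0.49 (SE, 12 against 12 libraries). By set it amounted to -2.60 ± 0.68 (set 2) and -3.98 ± 0.68 (set 4; SE, 6 against 6 libraries). As a ratio of mean FPKM, WT exceeded L2d13 by 3.64-fold in set 2 and by 64.4-fold in set 4. The ratio in set 4 is taken over an L2d13 mean of 0.453 FPKM, near 0, and is imprecise for that reason. For Tcim the log2 difference was -1.93 ± 0.26 over both sets, -1.17 ± 0.30 in set 2 and -2.69 ± 0.30 in set 4 (SE), and the ratio of mean FPKM was 2.60-fold in set 2 and 7.93-fold in set 4. Among the 10532 genes tested, Bglap3 had the lowest genotype difference and Tcim the 11th lowest. Both were chosen from these values, so the ranks describe the choice. Of all genes tested, 4.86% were called lower and 25.9% higher at an adjusted p under 0.05, or 30.8% in either direction (512 and 2730 genes; 1162 and 1128 with median-of-ratios scaling, which moves the median difference of all genes from 0.12 to 0).

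Without replicate 3 of L2d13 set 2, the mean Bglap3 of that group was 5.31 ± 7.07 FPKM (SD, n = 5) and its genotype difference in set 2 was -3.09 on the log2 scale. That library stood apart in other genes as well. It had the lowest sum of hepatocyte markers (26550) and the highest sum of all 7 other marker lists of cell types, for example 203 for endothelium and 3565 for erythroid cells. It also held the least Gm21451 of the L2d13 libraries, at 40.63 FPKM. Their part in its Bglap3 and Tcim levels was not tested.

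**Figure D2:**
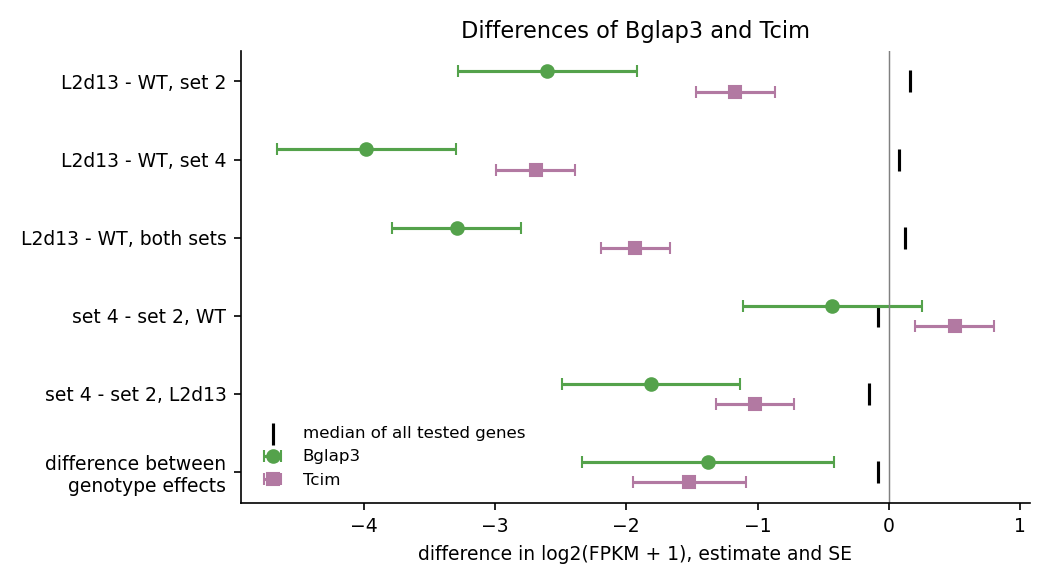
Differences of Bglap3 (circles) and Tcim (squares) in log2(FPKM + 1), with the SE as bars; the upper 3 rows are the genotype differences by which the genes were chosen, the lower 3 are the comparisons of sets. Vertical ticks mark the median of all 10532 tested genes, and every genotype difference of both genes lies below -1.

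The genes were not chosen by a comparison of set 4 with set 2. Such comparisons do use values that entered the choice, those of L2d13 livers above all. Their p-values are therefore not fully independent of it. In WT livers neither gene passed the limma test between the sets. Bglap3 differed by -0.43 ± 0.68 (SE, adjusted p = 0.883) and Tcim by 0.50 ± 0.30 (SE, adjusted p = 0.692). Without WT set 4 replicate 9 the Bglap3 difference was 0.06, so its sign rested on that library. In this comparison 0.19% of the tested genes were called (9 higher and 11 lower; 12 and 5 with median-of-ratios scaling).

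In L2d13 livers Tcim fell from set 2 to set 4 by 1.02 ± 0.30 on the log2 scale (SE, adjusted p = 0.0449 with limma), and all 6 set 4 libraries lay below all 6 of set 2, as they did in 4.97% of tested genes. Bglap3 differed by -1.81 ± 0.68 (SE, adjusted p = 0.111) and did not pass. The share of all genes called lower in set 4 was 5.51%, and 6.06% were called in either direction. The Tcim call was close to the threshold: leaving out 1 library at a time kept it in 12 of 24 cases. It was lost without any of 10 L2d13 libraries (all but replicates 4 and 11) and without replicate 4 of WT set 2 or replicate 12 of WT set 4, with an adjusted p of at most 0.110. The adjusted p was 0.124 with median-of-ratios scaling, where the difference was -0.82. The same scaling moved the median of all genes from -0.15 to 0.04 and the calls from 580 lower and 58 higher to 171 lower and 130 higher.

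The genotype difference was larger in set 4 than in set 2 for both genes, but the difference between them did not pass. For Tcim it was -1.52 ± 0.43 (SE, adjusted p = 0.250 with limma, 24 libraries), and for Bglap3 -1.38 ± 0.96 (SE, adjusted p = 0.818). Of all tested genes, 0.152% were called for this difference (3 higher and 13 lower; 5 and 9 with median-of-ratios scaling).

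Bglap3 was among the most variable genes within groups, and Tcim varied more than the median gene. The pooled SD within groups of log2(FPKM + 1) was 1.29 for Bglap3, the 15th widest of 10532 genes, and 0.566 for Tcim, against a median of 0.260 over all tested genes. The coefficient of variation of Bglap3 FPKM was 46.5% in WT set 2, 75.7% in WT set 4, 119.5% in L2d13 set 2 and 102% in L2d13 set 4 (n = 6 each). That of Tcim was 54.02%, 53.1%, 24.9% and 29.3% in the same order, so that Tcim spread less within the L2d13 groups, as a share of its mean, than within the WT groups, a difference given without a test.

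Across the 24 libraries the genes looked alike mainly through the groups. Their Pearson r on the log2 scale was 0.74 as measured and 0.07 after the group means were removed. Replicate 9 of WT set 4 weighs on the value of 0.07, with the lowest Bglap3 of the WT libraries (2.99) and the highest Tcim of all 24 (89.82). Within WT set 4 r was -0.41, and 0.47 without the 2 libraries farthest from the median of Tcim, replicate 9 among them. The r over 24 libraries was not computed without replicate 9. Within single groups, 8 relations among Bglap3, Tcim and Gm21451 were tested by exact permutation (two-sided, n = 6 each), and none passed after adjustment over the 8, while 2 had an unadjusted p under 0.05. The closest were Bglap3 with Tcim in WT set 2 (r = 0.89, exact p = 0.0278, adjusted p = 0.111, rho = 0.83 with exact p = 0.0583) and Tcim with Gm21451 in L2d13 set 2 (r = -0.87, exact p = 0.0236, adjusted p = 0.111, rho = -0.89 with exact p = 0.0333). Without the 2 libraries farthest from the median of Tcim in the first relation, and of Gm21451 in the second, these were 0.84 and -0.64. Bglap3 against Gm21451, the row that was high in L2d13 livers, gave r = -0.41 (exact p = 0.444) in L2d13 set 2 and r = -0.81 (exact p = 0.0694) in L2d13 set 4, which turned to 0.69 without the 2 farthest libraries.

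The genes most like Bglap3 were sought among all tested genes by Pearson r after removal of the group means, over 24 libraries. The 3 closest were predicted genes of chromosome 12, LOC108167368 (r = 0.945), Gm9295 (r = 0.938) and Gm9265 (r = 0.929), singled out after their values were seen. All 3 were low in the same libraries as Bglap3. In replicates 2, 5 and 6 of L2d13 set 2, LOC108167368 held 0.33, 0.15 and 0.23 FPKM, against 2.36, 6.57 and 4.23 in replicates 1, 3 and 4. In replicate 9 of WT set 4 it held 0.33, against 5.02 to 17.08 in the other libraries of that group. Within WT set 4 alone, r with Bglap3 was 0.99 for LOC108167368 and 1.0 after rounding for both Gm9295 and Gm9265 (n = 6); within L2d13 set 4, where all of these genes lie near 0, it was 0.40, 0.67 and -0.14. The clone-named genes 1600014C10Rik (r = 0.862) and 2210016F16Rik (r = 0.798) came next. They too were chosen after their values were seen.

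Among genes with established names, the closest to Bglap3 were Pebp1 (r = 0.794), which encodes a Raf kinase inhibitor protein, Cdpf1 (0.766), Prr5 (0.713), a subunit of the mTORC2 kinase complex, Atg16l1 (0.702), an autophagy protein, and Coq5 (0.690), an enzyme of coenzyme Q synthesis. Pebp1 also led these names by Spearman's rho of FPKM without removal of group means (rho = 0.874). In L2d13 set 2 it held 316.9, 388.91 and 226.92 FPKM in replicates 1, 3 and 4, the libraries with high Bglap3, and 126.28, 151.34 and 131.17 in replicates 2, 5 and 6. Unlike Bglap3 it was not low in replicate 9 of WT set 4, at 305.83 FPKM. The highest rho after Pebp1 were those of Plekhf1 (0.817), Hspa1a (0.816), a heat shock protein, Adra1b (0.810), the alpha-1B adrenergic receptor, and Cyp2d40 (0.809). All these measures share libraries and were ranked over 10532 genes, so they are descriptions.

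**Figure D3:**
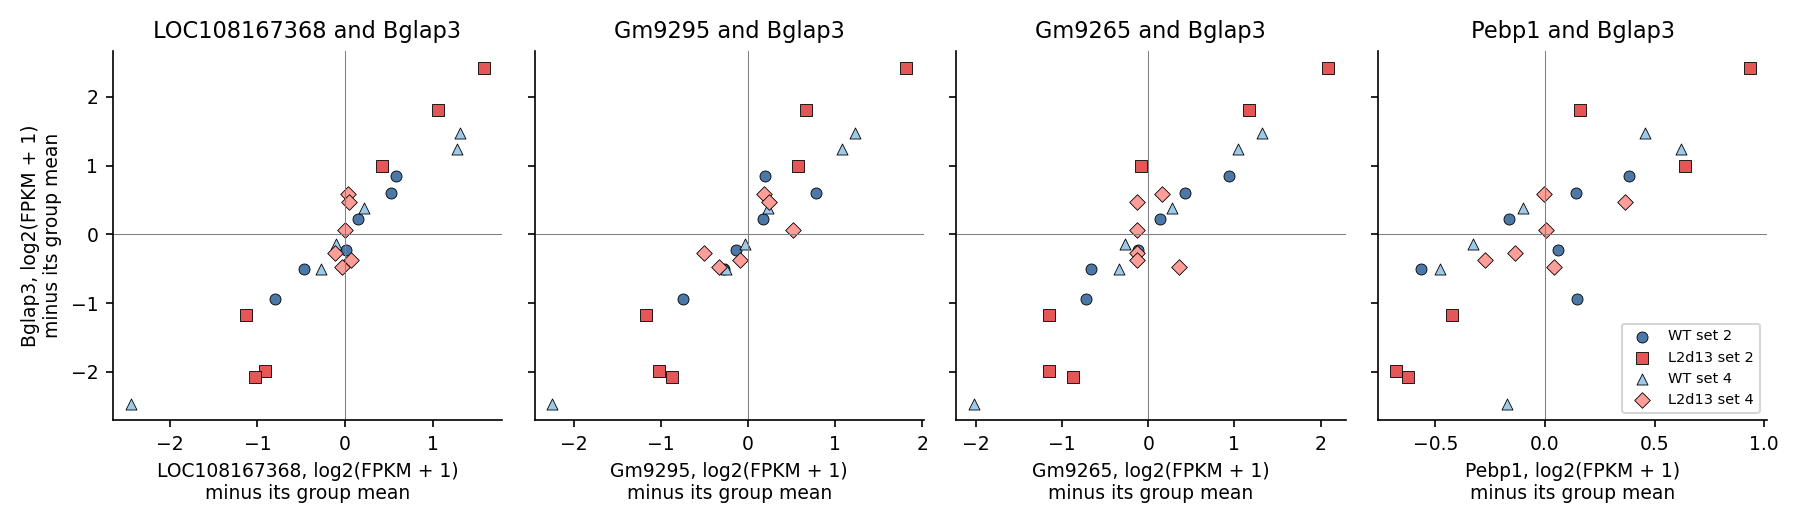
Bglap3 (vertical axis) against LOC108167368, Gm9295, Gm9265 and Pebp1 (horizontal axes), each as log2(FPKM + 1) minus its group mean; each point is 1 library, with colour and shape for its group. Replicate 9 of WT set 4, the lowest triangle, is low in the 3 predicted genes but not in Pebp1.

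Sequence shared with Bglap3 was rare among tested genes but present in the group most like it. A BLAST search with the Bglap3 transcripts and start windows (at least 60 bases, e-value up to 1e-10) found a match in 15 of 10467 tested genes with a sequence, or 0.143%. Of the 12 genes most like Bglap3, 11 had a sequence and 2 had a match. The start window of Gm9295 matched the long Bglap3 transcript over 197 bases at 92.9% identity on the same strand, and the transcript of 2210016F16Rik matched it over 417 bases at 71.0% on the opposite strand. The other matched genes were less like Bglap3 in level: Osgep, the next, had r = 0.531 and ranked 227th, and the median r of the 15 was 0.28, against 0.17 over all tested genes. LOC108167368 had a start window but no match, and Gm9265 had no sequence in the tables used. The match of Gm9295 lies in its start window and no transcript of it was in the tables used. The part of shared sequence in the likeness was not tested.

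Other genes were most like Tcim. After removal of the group means its closest genes were N4bp2l1 (r = 0.905), Arrdc2 (0.864), an arrestin-domain protein, Cenpx (0.858), a centromere and DNA repair protein, Phf11a (0.853) and Rsrp1 (0.848). N4bp2l1 tracked Tcim in each group, with r = 0.92 in L2d13 set 2, 0.84 in L2d13 set 4, 0.95 in WT set 2 and 0.90 in WT set 4 (n = 6 each). It was highest in the 2 WT libraries with the highest Tcim of their groups, at 28.02 FPKM in replicate 6 of set 2 and 26.57 in replicate 9 of set 4. For Arrdc2 r was 0.89, 0.19, 0.93 and 0.96 in the same order of groups. Without removal of group means, the highest rho with Tcim were those of Adra1b (0.926), Tpm2 (0.910), a tropomyosin, Slc45a3 (0.893), Rad54l2 (0.890) and Smim1 (0.877). Adra1b ran from 8.32 to 26.99 FPKM in WT and from 4.5 to 14.79 in L2d13 livers.

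In some groups the highest Tcim value fell in a library that also differed in a technical measure. FPKM per fragment, read from the steps between low values of 178 genes, was within 5% of a common value in 21 libraries and above it in 3, replicate 3 of L2d13 set 2 (1.098), replicate 6 of WT set 2 (1.286) and replicate 9 of WT set 4 (1.100). Those 3 libraries held the highest Tcim of their groups, at 18.96, 60.71 and 89.82 FPKM. They also held the highest N4bp2l1 (15.24, 28.02 and 26.57 FPKM) and Arrdc2 (12.65, 22.66 and 30.65 FPKM) of their groups. Replicate 10 of WT set 4, within 5% at 1.035, held 63.77 FPKM of Tcim, more than replicate 6 of WT set 2. Over the other 21 libraries Tcim averaged 8.54 ± 3.39 FPKM in L2d13 (SD, n = 11) and 33.2 ± 14.5 in WT livers (SD, n = 10). Bglap3 averaged 2.66 ± 5.15 FPKM in L2d13 over the same libraries and ran from 14.44 to 60.16 in WT. Whether the property is linked to the Tcim levels, or to the likeness of N4bp2l1 and Arrdc2 to Tcim, was not tested.

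**Figure D4:**
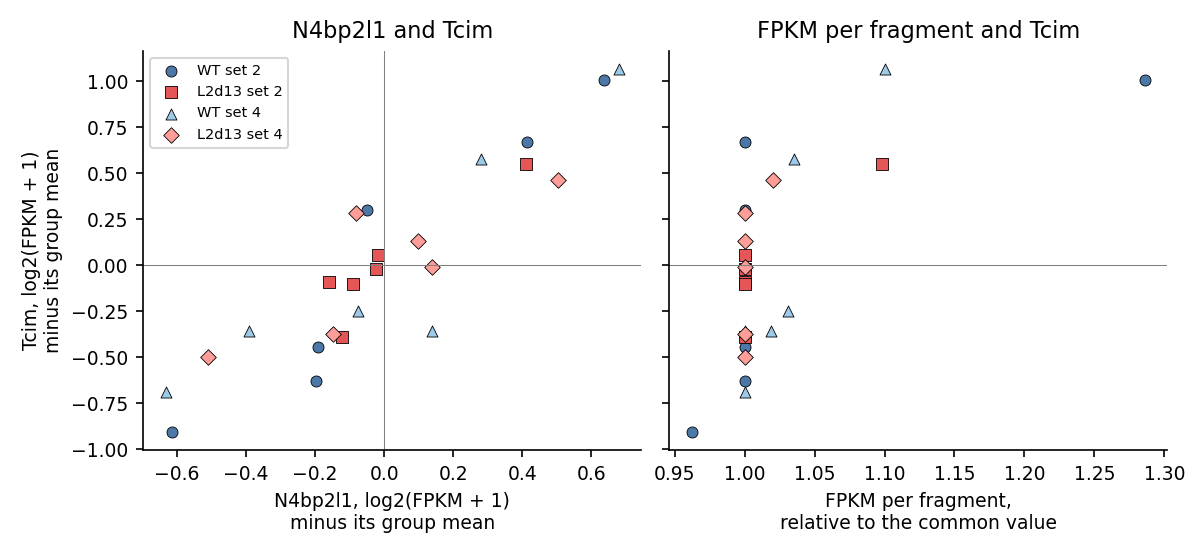
Tcim as log2(FPKM + 1) minus its group mean (vertical axes) against N4bp2l1 on the same scale (left) and against FPKM per fragment relative to the common value (right); each point is 1 library, coloured and shaped by group. The libraries at 1.098, 1.100 and 1.286 on the right all lie above their group mean of Tcim.

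The osteocalcin genes beside Bglap3 were hardly detected in these livers. Bglap was listed at 0 in 22 of 24 libraries and at 0.13 and 0.12 FPKM in the other two, both L2d13, and Bglap2 was listed at 0 in 23 and at 0.12 in 1 WT library. Of 10 osteoblast markers, 8 were measured, the osteoblast factor Sp7 averaged 0.00667 FPKM in L2d13 and 0.00417 in WT livers, and Runx2 averaged 0.132 and 0.0933. The summed level of the 8 ran from 23.74 to 130.2 FPKM in L2d13 and from 21.2 to 87.81 in WT livers. Most of it came from Spp1 and Alpl, which liver also expresses. Of 4 osteoblast markers tested, 1 rose in L2d13 livers and 0 fell, against 25.9% and 4.86% of all genes. The marker that rose was Alpl (0.39 ± 0.10 on the log2 scale, SE, adjusted p = 0.00415 with limma). Ibsp and Dmp1, also on the list, were matched to none of the measured genes.

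Of the 6 tested neighbours of both genes, 1 was called higher and 0 lower by limma (0 lower at an unadjusted p under 0.05), where 25.9% of all genes were called higher and 4.86% lower. Of the 5 genes on each side of Bglap3 in the RefSeq order, 9 were measured and 5 tested. Cct3, a subunit of a chaperonin, was higher in L2d13 livers (0.52 ± 0.09 on the log2 scale, SE, adjusted p = 0.000205 with limma), and the other 4 lay between -0.13 and 0.15 and did not pass. Pmf1, on the far side of Bglap, differed by -0.10 ± 0.12. Around Tcim 2 of 10 neighbours were measured, and the 1 tested, the tryptophan-degrading enzyme Ido2, differed by -0.15 ± 0.13 (SE, adjusted p = 0.424).

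**Figure D5:**
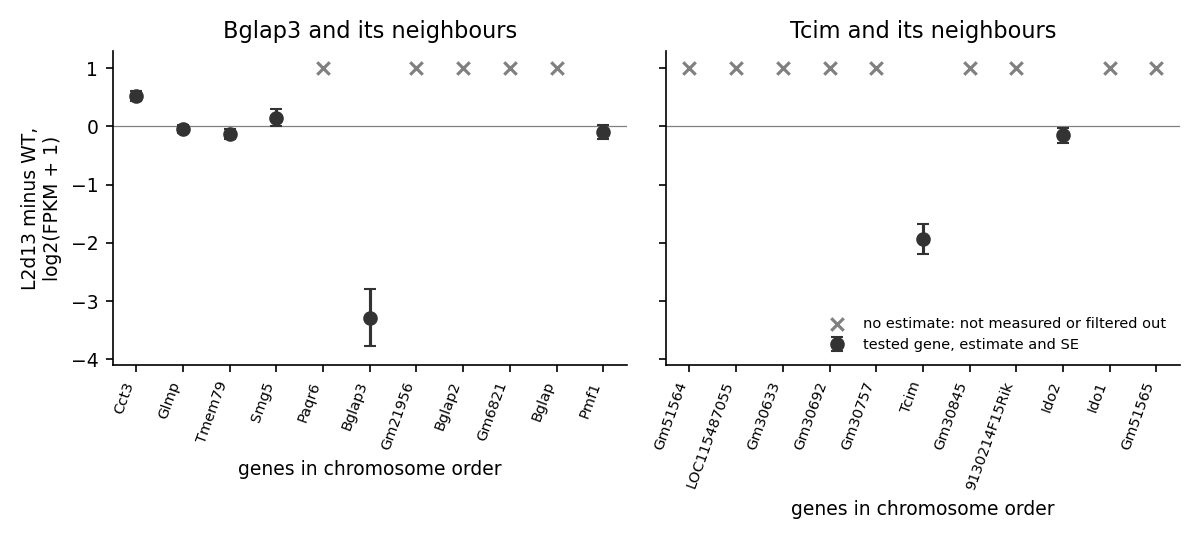
Genotype difference (L2d13 minus WT, log2(FPKM + 1), with SE) of Bglap3, Tcim and the 5 genes on each side of each in chromosome order; crosses at the top mark genes with no estimate. Bglap3 at -3.29 and Tcim at -1.93 lie alone below the neighbours, which run from -0.15 to 0.52.

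Genes of the vitamin K chemistry behind osteocalcin were called about as often as all tested genes, of which 25.9% were called higher and 4.86% lower. Of the vitamin K cycle and Gla proteins, 18 of 23 were tested, 4 rose (22.2%) and 1 fell (5.56%). Their median log2 difference was 0.15, against 0.12 over all genes. With median-of-ratios scaling, which called 1128 of all tested genes higher and 1162 lower, the counts were 3 and 3. Those that rose included protein S (Pros1, 0.76 ± 0.09), the vitamin K reductase Vkorc1l1 (0.64 ± 0.09) and Calu (0.62 ± 0.16), an inhibitor of the carboxylase (SE). The carboxylase Ggcx itself, which acts on osteocalcin, differed by 0.16 ± 0.10 (SE, adjusted p = 0.210) and did not pass.

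Of the Wnt and beta-catenin genes that bear on Tcim's partner Chibby, 26 of 30 were tested, with a median of 0.13. Of these 7 rose (26.9%, against 25.9% of all genes) and 3 fell (11.5%, against 4.86%). Under median-of-ratios and quantile scaling the counts were also 7 and 3. They were 3 and 3 over the 17 libraries at most 1.5% above the common FPKM per fragment, which left 2 of WT set 4. Cby1 itself differed by 0.21 ± 0.09 (SE, adjusted p = 0.0681) and beta-catenin (Ctnnb1) by 0.25 ± 0.11 (adjusted p = 0.0858), neither past the threshold. The 4 with the smallest p were Cyp1a2 (-1.08 ± 0.13), a detoxifying enzyme of the hepatocytes near the central vein, Oat (0.91 ± 0.16), Sp5 (0.59 ± 0.12), a direct Wnt target, and Lect2 (-0.69 ± 0.15), a secreted hepatocyte protein. Of the other 6 members called, 5 rose and 1 fell. Of the NF-kB genes 18 of 26 were tested, 2 rose (Tnip1 by 0.34 and Nfkb1 by 0.29) and 1 fell (Nfkbia, -0.69 ± 0.21), with a median of 0.01, against shares of 25.9% and 4.86% of all genes; with median-of-ratios scaling 2 rose and 3 fell. Of the Notch genes 14 of 25 were tested and 3 rose (21.4%, against 25.9% of all genes), among them Adam10 and Rbpj. With median-of-ratios scaling 1 rose. That scaling changed the background too, to 1128 of all tested genes higher and 1162 lower, from 2730 and 512.

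Of 24 genes of the glucocorticoid response, all tested, 9 fell (37.5%, against 4.86% of all genes) and 0 rose (against 25.9%) by the limma test, with a median of -0.41 against 0.12 over all genes; at an unadjusted p under 0.05, 13 were lower and 1 was higher. This list was drawn up with earlier results of these data known and is no independent evidence of its direction. The 4 with the smallest p were the corticosteroid carrier Serpina6 (-0.97 ± 0.14), the transcription factor Klf15 (-0.66 ± 0.12), the cortisone reductase Hsd11b1 (-0.36 ± 0.07) and the RNA-binding protein Zfp36 (-1.09 ± 0.21; SE). The receptor Nr3c1 differed by 0.24 ± 0.11 (adjusted p = 0.0989). Markers of other cell types were also called beside the low Bglap3 and Tcim. Among those tested, 4 of 9 endothelial markers rose, 3 of 7 of Kupffer cells and 2 of 8 of stellate cells. Over all genes 25.9% rose. These counts became 1, 0 and 1 when libraries were scaled by median of ratios. That scaling called 1128 of all tested genes higher and 1162 lower, against 2730 and 512 before. Over the 21 libraries within 5% of the common FPKM per fragment the marker counts were 1, 1 and 4. Of 7 hepatocyte markers 1 rose and 1 fell (1 and 3 with median-of-ratios, 2 and 1 with quantile scaling; at an unadjusted p under 0.05, 1 was higher and 4 were lower), where 4.86% of all genes fell. None of 4 tested cholangiocyte markers and none of 2 lymphocyte markers passed the limma test (0 each, and 0 at an unadjusted p under 0.05), and 1 of 5 erythroid markers fell. Their part in the levels of Bglap3 and Tcim was not tested.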

How the data were processed

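Per the labels' protocols, liver RNA was prepared with TRIzol for the BGISEQ-500 platform. HISAT, Bowtie2, RSEM and the build GRCm38.p5 are named in the submitters' processing notes, without versions. The FPKM values were deposited by the authors with 2 decimals; FPKM holds no read totals, so depth is unknown. Sums of FPKM ran from 550260 to 722980 per library, and no 2 libraries were identical (0 pairs).

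Tests were run on the 10532 genes that reached an FPKM of 1 in 6 or more libraries, Bglap3 and Tcim included. Values of log2(FPKM + 1) entered limma 3.58.1 (R 4.3.3) with additive terms for set and genotype, or with 1 mean per group for all other contrasts, and p-values were adjusted by Benjamini and Hochberg over all tested genes, with a threshold of 0.05. The fit was checked on simulated data. Symbols and gene order came from RefSeq (GRCm38.p6; 18040 of 18171 IDs matched), transcripts from GENCODE M21, and matches from BLAST 2.17.0. Genes most like a member are the 5 highest by each measure, passing over predicted genes, clone names and unmatched IDs. Lists name up to 4 members with the smallest p. Some list members are counted but not reported here by name. The members and lists were chosen with earlier results of these data known. Other settings were a pseudocount of 0.1, no filter, median-of-ratios and quantile scaling, fewer libraries, a replicate block, and each library left out. Replicate numbers are shared by set 2 of both genotypes and by set 4 of both, and were used only in the fit with a replicate block.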

Additional observations from a re-analysis of the deposited data

How the results depend on the processing

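The genotype differences of Bglap3 and Tcim kept their sign under every alternative run. Over both sets they ranged from -4.57 to -3.11 for Bglap3 and from -2.07 to -1.51 for Tcim; in set 4 Bglap3 reached -5.74 with a pseudocount of 0.1. Set 4 minus set 2 in WT was small for Bglap3 and changed sign to 0.23 with the 21 libraries within 5% of the common FPKM per fragment, and leaving out 1 library gave -0.73 to 0.06. For Tcim in L2d13 the difference between sets no longer passed without the filter (-1.02, adjusted p = 0.0689), with median-of-ratios scaling (-0.82, 0.124) or with quantile normalization (-0.86, 0.109), and leaving out 1 library gave -1.12 to -0.91 with adjusted p from 0.0274 to 0.110; the cause was not tested. Numbers of genes called moved more. An alternative added after the data were seen kept the 17 libraries at most 1.5% above the common FPKM per fragment. It left 2 libraries in WT set 4 and 5 in each other group, so comparisons with WT set 4 rest on few libraries. It gave 2092 calls for genotype (3242 before), 1 for set in WT (20), 963 for set in L2d13 (638) and 63 for the difference between genotype effects (16). For set in L2d13, median-of-ratios gave 301 and quantile normalization 345. For the difference between genotype effects, no filter gave 6 and the replicate block 9. Leaving out 1 library gave 7 (without WT set 2 replicate 3) to 82 (without WT set 4 replicate 8) for set in WT, 294 to 883 for set in L2d13 and 6 to 19 for the difference. Without the 2 farthest libraries, r reversed to -0.47, 0.44 and 0.47 for Bglap3 with Tcim in L2d13 set 2, L2d13 set 4 and WT set 4, and to 0.21 and 0.69 for Bglap3 with Gm21451 in L2d13 set 2 and set 4.

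Replicate numbers did not pair the libraries: the correlation of same-numbered deviations ran from -0.6 to 0.26, and 1 of 24 libraries was closest to its own number. With the replicate block the genotype difference over both sets was -3.29 ± 0.49 for Bglap3 and -1.93 ± 0.28 for Tcim (SE), and the difference between genotype effects passed for neither (adjusted p = 0.956 and 0.456). FPKM gives no fragment totals, so fragments were not counted. The lowest Bglap3 values above 0 were 0.08, 0.16, 0.16 and 0.23 FPKM, in libraries at the common FPKM per fragment. Such nearly even steps mean that Bglap3 values near 0 rest on very few fragments. With 6 libraries per group the split of Bglap3 in L2d13 set 2 rests on 3 libraries each.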
